A study of Mus musculus with 95 samples.

Results

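Interferon-induced genes were described as a set of 47 mouse genes whose transcripts are known to rise when cells receive an interferon. Members were found by gene symbol in the deposited count table, and 47 of 47 listed symbols were found among its 20638 genes. All 47 also passed the low-count filter, which kept 15841 genes. The list was split into 27 type I-like genes, 14 type II-like genes and 6 genes that answer to either kind of interferon.

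The RNA came from islets, the small endocrine organs of the pancreas that release insulin and glucagon. The mice belonged to the inbred strains that founded the Diversity Outbred stock, and were fed a diet high in fat and sugar that the labels give as 45% fat. The labels give tissue and diet alike for all 95 libraries, and neither strain nor sex for any of them. No library could be placed in a group, so levels are given by library number and no groups were tested against each other. The numbers run to 100, with 5 missing. Neighbouring numbers were alike within runs of consecutive numbers, between which the median kept gene had 56.7% of its variance. That share depends on where the runs are cut. Of kept genes, 62.1% had over 50% of their variance between the runs, and 15.3% between blocks of 10 numbers. Expression is therefore also described over 12 runs of consecutive numbers, 1 to 8, 9 to 16, 17 to 24, 25 to 32, 34 to 39, 40 to 48, 49 to 58, 59 to 65, 66 to 75, 76 to 85, 86 to 90 and 91 to 100. The limits of the runs were chosen with earlier results of these data known, and a run is not a group of the labels.

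Type I interferons are sensed by a receptor present on most cells. Its kinases activate a complex of Stat2, Irf9 and a partner, which binds the interferon-stimulated response element (ISRE) in front of genes such as Isg15, the Ifit genes and the Oas genes. Type II interferon, made by T cells and natural killer cells, uses another receptor and the gamma-activated sequence (GAS), and it strongly induces Irf1, the guanylate-binding proteins (Gbp genes), the immunity-related GTPases and the chemokine Cxcl9. Many of these genes answer to both kinds to some degree, so the classes are leanings and not a measurement of which interferon was present. In islets, interferon-induced genes are known from immune infiltration and from the response to viral infection.

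Promoter sequences were searched for both elements. The RefSeq promoter table for GRCm38.p6 held an entry for 34 of the 47 members. An ISRE-like match, GAAA followed after any 2 bases by GAAA on either strand, within 250 bases before the start, was present in 16 of the 34 members (47.1%), against 3.46% of 27025 genes in the table. It was present in 8 of 21 type I-like, 7 of 10 type II-like and 1 of 3 other members. A GAS-like match, TTCNNNGAA on either strand in the same window, was present in 9 of the 34 (26.5%), against 8.13% of the 27025 genes. It was present in 4 of 21 type I-like, 5 of 10 type II-like and 0 of 3 other members. The GAA that ends a GAS-like match can also begin an ISRE-like match, and a match describes letters, not binding.

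The 120 bases before the start are shown for 6 members that cover these arrangements, 5′ to 3′ on the gene's own strand, with matches of either motif in capitals. Isg15 (chr4:156200819-156200938, minus strand) has ISRE-like matches only, in a row of repeats whose first base lies 78 bases before the start.
Isg15: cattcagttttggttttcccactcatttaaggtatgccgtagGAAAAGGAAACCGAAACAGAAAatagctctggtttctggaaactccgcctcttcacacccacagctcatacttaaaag
Rsad2 (chr12:26456453-26456572, minus strand) has an ISRE-like match on the opposite strand, with its first base 120 bases before the start.
Rsad2: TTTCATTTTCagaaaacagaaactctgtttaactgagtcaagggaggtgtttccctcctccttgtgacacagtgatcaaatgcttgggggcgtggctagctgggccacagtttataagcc
Oas1a (chr5:120907526-120907645, minus strand) has a GAS-like match 98 bases before the start and overlapping ISRE-like matches at 20 and 14 bases.
Oas1a: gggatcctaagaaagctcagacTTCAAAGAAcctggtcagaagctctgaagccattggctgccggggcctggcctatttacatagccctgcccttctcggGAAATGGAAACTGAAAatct
Among type II-like genes, Igtp (chr11:58199436-58199555, plus strand) has a GAS-like match at 45 bases beside an ISRE-like match at 34 bases.
Igtp: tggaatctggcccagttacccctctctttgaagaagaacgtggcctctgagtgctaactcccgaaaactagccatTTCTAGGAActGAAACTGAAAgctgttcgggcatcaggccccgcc
Gbp7 (chr3:142530216-142530335, plus strand) has GAS-like matches at 106 and 87 bases and an ISRE-like match at 53 bases.
Gbp7: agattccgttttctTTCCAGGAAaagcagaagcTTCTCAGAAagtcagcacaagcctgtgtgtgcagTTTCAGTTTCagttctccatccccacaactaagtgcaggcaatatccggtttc
Irf1 (chr11:53769894-53770013, plus strand) has a GAS-like match alone, 90 bases before the upstream of its listed starts.
Irf1: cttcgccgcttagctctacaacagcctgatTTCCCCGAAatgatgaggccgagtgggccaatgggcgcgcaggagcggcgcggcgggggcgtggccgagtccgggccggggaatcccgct

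Total counts per library ran from 16411809 to 34357253, with a median of 26552738. In 15 libraries, over 25% of counts fell on a list of 33 acinar genes, which mark the exocrine pancreas around the islets. The summed level of 6 beta cell markers was 54569 to 227952 CPM (a count as its part of 1000000 counts of the library). In libraries 91 to 100 the summed level of 7 T cell markers was 7.06 to 574 CPM, with a median of 143 CPM. It was 38.96 CPM or lower in the other 85, a level that 8 of the 10 exceeded, and 6 of the 85 reached the lowest of the 10. In a bulk sample, more cells of a type and more RNA per cell cannot be told apart.

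At the median library the members were expressed at modest levels. Per kilobase of transcript, the highest median was that of Lgals3bp, a secreted galectin-binding glycoprotein, at 122 CPM per kilobase. Irf1, a transcription factor that starts much of the type II program, followed at 43.2 CPM per kilobase, and Ifitm3, which blocks fusion of virus with the cell, at 14.3. Trim25, a ubiquitin ligase that acts on the RNA sensor Ddx58, stood at 13.1 CPM per kilobase, and Stat2 and Irf9, which carry the type I signal to the nucleus, at 3.89 and 3.56. The lowest medians were those of Oas3, an oligoadenylate synthase, at 0.0353 CPM per kilobase, Zbp1, a sensor that can start cell death, at 0.0974, and Cxcl9, which draws T cells, at 0.104. Estimated counts rounded to 0 occurred for 4 members: Oas3 in 4 libraries, Cxcl9 in 2, and Oas1a and Zbp1 in 1 each.

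The members varied far more among libraries than most islet genes did. The biological coefficient of variation, edgeR's estimate of spread beyond counting error, exceeded 50% for 37 of 47 members, against 24.2% of the 15841 kept genes. The count was 14 of 14 for type II-like genes, 19 of 27 for type I-like genes and 4 of 6 for the others. Median coefficients were 115%, 68.5% and 58.1% for those classes, against 25.3% over all kept genes. Without libraries 91 to 100, 27 members exceeded 50%, against 21.1% of kept genes. The members thus kept a wider spread than the background in both sets of libraries.

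The members with the widest and the narrowest spread differed by class. Between the libraries' 10th and 90th percentiles, Mx1, a GTPase that blocks influenza virus, spanned 4.83 log2 units and Ifi44, a cytoplasmic protein induced by type I interferon, spanned 3.62. The narrowest type I-like ranges were 0.68 for Ifi35 and 0.72 for Eif2ak2, the kinase that halts translation on double-stranded RNA. Among type II-like genes Cxcl9 spanned 6.30 log2 units and Iigp1, an immunity-related GTPase, spanned 4.99, while Gbp9 spanned 1.78 and Gbp5 2.04. Of the genes that answer to either kind, Cxcl10, a T cell chemokine like Cxcl9, spanned 6.05 and Zbp1 3.84. Parp9 and Dtx3l, which form a complex that attaches ADP-ribose and ubiquitin, spanned 0.92 and 0.98.

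**Figure D1:**
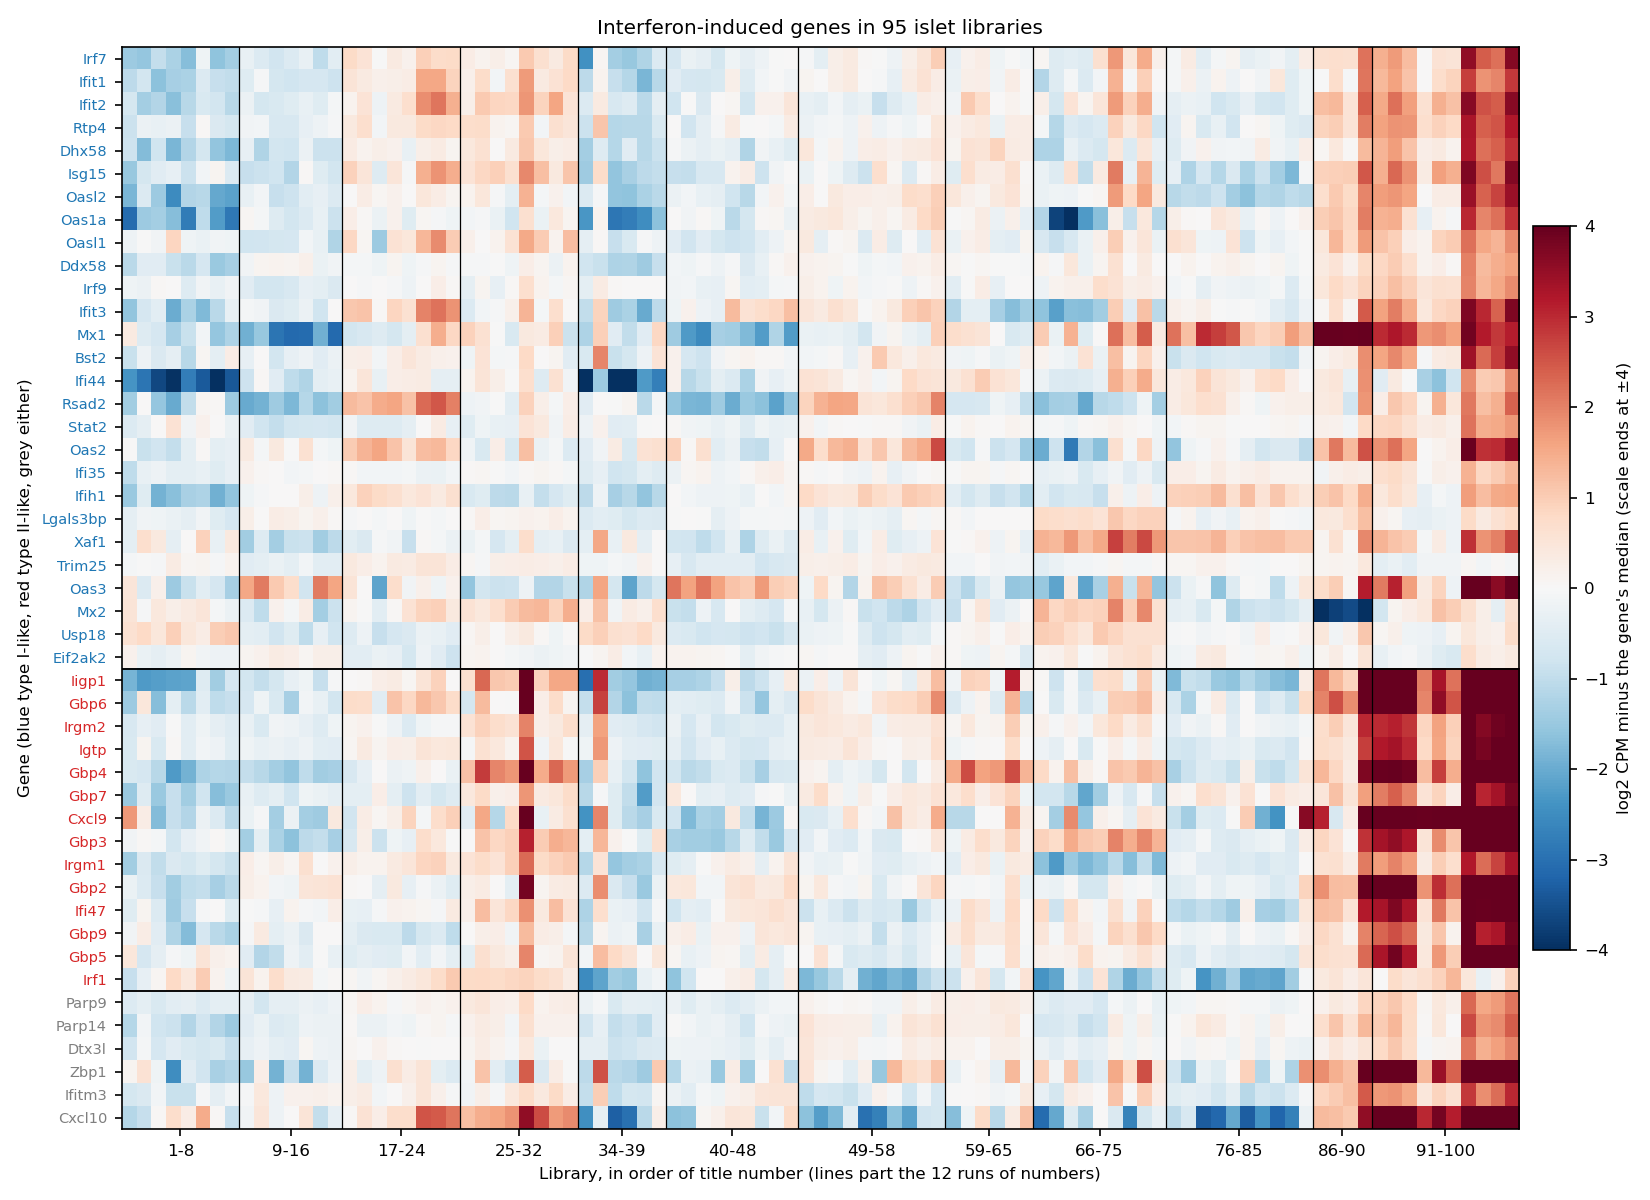
Each row is a gene and each column a library in order of number; colour gives the log2 CPM of a library minus the gene's median over the 95 libraries, ending at 4 log2 units either way. Libraries 91 to 100 are high in most rows, most of all in type II-like genes, while Mx1, Mx2, Ifi44, Irgm1 and Rsad2 change colour at limits of runs.

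Type II-like genes were high above all in libraries 91 to 100. In each library, the shift of a class was taken as the mean over its genes of log2 CPM minus the gene's median. In libraries 91 to 100 the shift of type II-like genes ran from 1.14 to 5.20 log2 units with a median of 3.59, and that of type I-like genes from 0.11 to 2.51 with a median of 1.14. The type II-like shift was the larger in all 10 of these libraries. Both were highest in libraries 97 and 100, where 28 and 12 of the 47 members had their highest level, as did 17.4% and 3.78% of kept genes.

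Cxcl9 had the widest step. It was at 5.98 to 300 CPM in libraries 91 to 100, with a median of 87.7 CPM, and at 0 to 19.9 CPM with a median of 0.289 CPM in the other 85. Of these 85, 2 libraries reached the lowest level of the 10. Cxcl10 was at 30.6 to 183 CPM with a median of 70.5 CPM, against 0.304 to 43.9 CPM with a median of 3.13 CPM elsewhere, and again 2 of 85 reached into its range. Both chemokines bind the receptor Cxcr3 on activated T cells.

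The GTPases followed. Gbp2, which attacks the membranes around intracellular microbes, was at 10.6 to 281 CPM with a median of 86.1 CPM, against 1.01 to 54.5 CPM with a median of 2.87 CPM in the other libraries. Igtp, of the immunity-related family, was at 14.03 to 309 CPM with a median of 78.6 CPM, against 4.603 to 55.7 CPM with a median of 7.69 CPM. The ranges overlapped for both, since 4 and 3 of the 85 other libraries reached the lowest of the 10. No member had all of libraries 91 to 100 above every other library, where 0.12% of kept genes did.

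The immune markers moved with the shifts of both classes within these 10 libraries. Not every member did so. Irf1 had its highest level, 428 CPM, in library 96, where the T cell marker sum was 21.7 CPM. Within the 10 libraries its rho with Gbp2 was -0.345. Library 94, with the lowest T cell marker sum (7.06 CPM), also had the lowest shifts of both classes, 0.11 and 1.14, with Cxcl9 at 5.98 CPM and Gbp2 at 10.6 CPM. Library 97, with the highest sum (574 CPM), had shifts of 2.51 and 5.17, with Cxcl9 at 300 CPM and Gbp2 at 281 CPM. The summed level of 6 macrophage markers was 61.5 to 712 CPM in libraries 91 to 100, with a median of 247 CPM, against a median of 61.4 CPM over all libraries. For 4 B cell markers it was 10.5 to 631 CPM, with a median of 131 CPM, against 9.83 CPM over all libraries. For the 2 natural killer cell markers in the table it was 0.883 to 62.2 CPM, against a median of 0.132 CPM. Markers of other cells differed there too. The sum of 4 conventional dendritic cell markers had a median of 76.6 CPM, against 5.56 CPM over all libraries, that of 5 stellate cell and fibroblast markers 393 against 120 CPM, and that of 6 acinar markers 71357 against 27810 CPM. The sum of 6 beta cell markers was lower, at a median of 123385 against 159839 CPM. Neither of the last 2 was particular to these libraries. The beta cell median was lower still in libraries 66 to 75, at 98011 CPM, and the acinar median higher in libraries 34 to 39, at 133600 CPM. The part of these cells in the levels of the members was not tested.

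**Figure D2:**
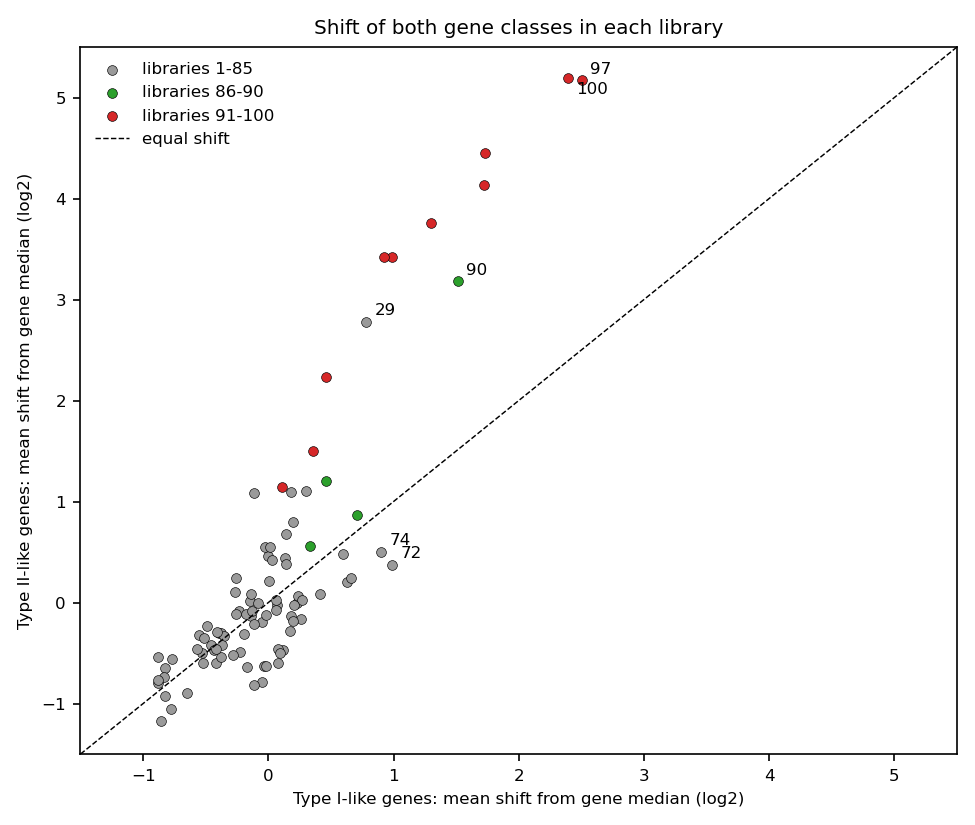
Each point is a library; the x axis gives the mean shift of the 27 type I-like genes and the y axis that of the 14 type II-like genes, in log2 units from each gene's median, and the broken line marks equal shifts. Libraries 91 to 100 lie 1.03 to 2.80 log2 units above the line, where libraries 29, 64 and 90 also lie over 1.03 above it, and of the other 85 libraries 43 lie above it by any distance.

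Elsewhere the shifts were smaller. Libraries 86 to 90 had a median shift of 0.58 for type I-like and 1.04 for type II-like genes. The lowest medians were those of libraries 1 to 8, at -0.80 and -0.69, and of libraries 34 to 39, at -0.82 and -0.65. In libraries 76 to 85 type I-like genes were near their medians, at -0.02, while type II-like genes were at -0.61. In libraries 25 to 32 the order was the other way, at 0.14 and 0.62. Over the 12 runs, libraries 91 to 100 held the highest run median for 35 of 47 members, 13 of 14 type II-like, 16 of 27 type I-like and 6 of 6 others, against 18.6% of kept genes. The lowest run median was in libraries 1 to 8 for 13 members, against 6.93% of kept genes, and in libraries 34 to 39 for 10, against 7.56%.

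Type II-like genes moved together more closely than type I-like genes. Mean Spearman rho over the 91 pairs of type II-like genes was 0.559, over the 351 pairs of type I-like genes 0.371, and over the 378 pairs across both classes 0.402. These describe 95 libraries that share neighbours and depth. Without libraries 91 to 100 the values were 0.420, 0.291 and 0.292, and after centring each gene within runs 0.493, 0.391 and 0.374. The type II-like value was the highest in each. Within libraries 91 to 100 alone, a set chosen after seeing the data, they were 0.799, 0.808 and 0.808, so the classes did not part there.

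The member that tracked the rest most closely was Irf7, the factor that amplifies the type I response, with a rho of 0.920 against the mean of the other members. Ifit1, which binds viral RNA, followed at 0.900 and Iigp1 at 0.891. At the other end stood Eif2ak2 at -0.03, Usp18, the protease that removes Isg15 from proteins and damps the type I receptor, at 0.01, and Mx2 at 0.19. These 3 genes carried little of the shared movement.

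Many members lie in clusters of related genes. The 25 pairs of members within 1000000 bases of each other had a median rho of 0.627, against 0.464 over the other 1056 pairs, and 0.580 against 0.421 after centring within runs. Parp14 and Dtx3l, neighbours on chromosome 16, had the highest value at 0.912. Mx1 and Mx2, 72401 bases apart on the same chromosome, had the lowest at 0.115. Gbp3 and Gbp2 on chromosome 3 stood at 0.337, and at 0.715 once run means were removed, so their difference lay between runs. For Igtp with Irgm2, Gbp4 with Gbp9, and Parp9 with Dtx3l the gene models overlap, and reads from such pairs cannot be told apart where the counting did not use strand or the models share it. Sequence shared with other genes also limits 3 members, since 74.3% of the 31-base words of Gbp6, 68.8% of those of Oas1a and 61.8% of those of Ifit3 occur in other genes.

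How far each gene followed the runs was measured as the share of its log2 CPM variance that lay between them (adjusted R2). The share exceeded 50% for 45 of 47 members, against 62.1% of kept genes, and 70% for 21 of 47, against 24.2%. Medians were 69.4% for the members and 56.7% for all kept genes. The shares of type I-like, type II-like and other members had medians of 68.5%, 72.3% and 67.2%. Without libraries 91 to 100, 36 members exceeded 50%, against 57.4% of kept genes, and with blocks of 10 numbers in place of the runs 33 did, against 15.3%. The 2 below 50% over all runs were Oasl1, an Oas-like protein that limits the making of Irf7, at 47.7% and Eif2ak2 at 37.8%.

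To tell members that follow the set from those with a pattern of their own, the mean of the other members was regressed out of each gene before taking the share again. It then exceeded 50% for 30 of 47 members, against 51.1% of kept genes treated alike, so the count itself was near the background. It did so for 17 of 27 type I-like, 10 of 14 type II-like and 3 of 6 other members. With blocks of 10 numbers in place of the runs it did so for 6 of 47 members, against 3.79% of kept genes, so the shares given next depend on the limits of the runs. The highest shares were those of Ifih1 and Irgm1, both at 88%, Xaf1 at 85.3%, Ifi44 at 84.8%, Mx2 at 83.5%, Rsad2 at 82.5%, Usp18 at 82.3%, Lgals3bp at 81.0%, Trim25 at 80.5% and Gbp3 at 80.3%. Mx1 followed at 74.0%. The lowest were those of Gbp6 at 20.5%, Oasl1 at 20.8%, Rtp4, a chaperone of membrane receptors, at 22.4%, Iigp1 at 24.5%, and Cxcl9 at 31.7%.

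**Figure D3:**
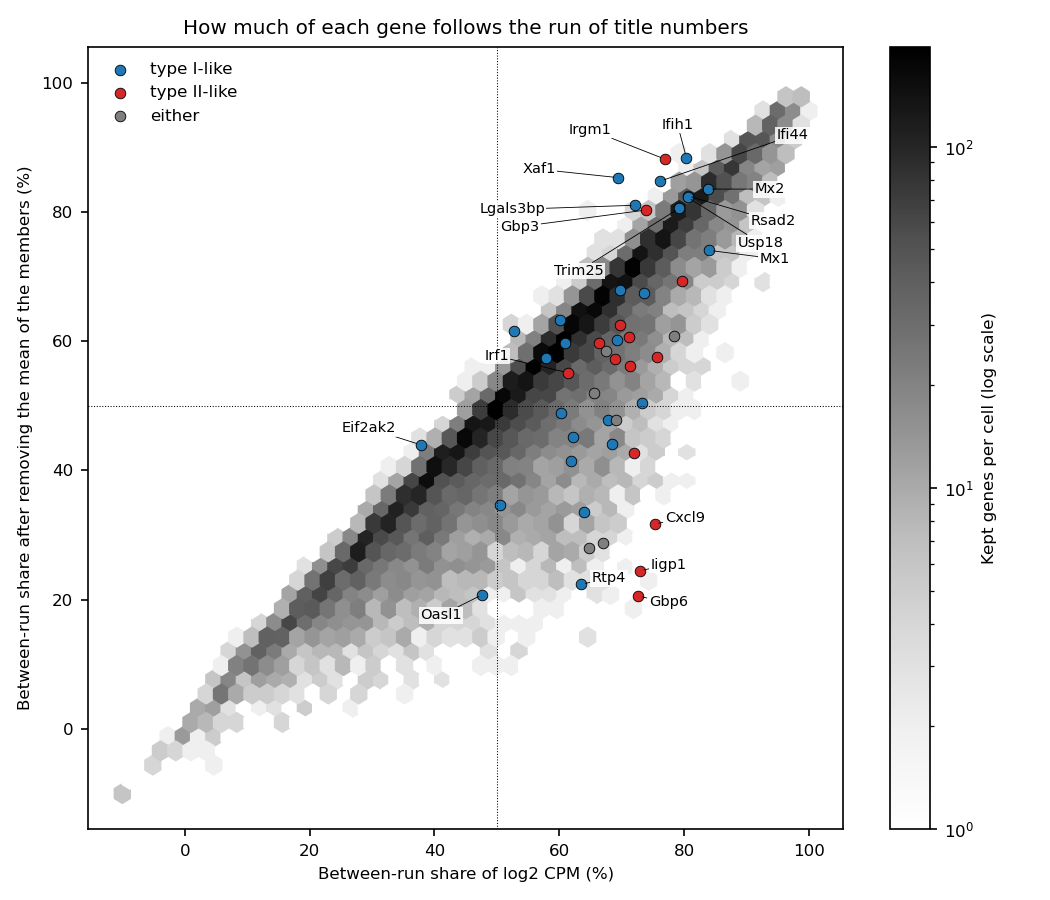
Each circle is a member; the x axis gives the percent of log2 CPM variance lying between the 12 runs and the y axis the same after the mean of the members is removed, over a grey density of the kept genes. Ifih1, Irgm1, Xaf1 and Ifi44 sit above 84% on the y axis, and Gbp6, Iigp1, Rtp4 and Oasl1 near 20%.

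Mx1 and its neighbour Mx2 (chromosome 16, 97447035 to 97462907 and 97535308 to 97560900, GRCm38) set libraries 86 to 90 apart in opposite directions. Mx1 acts against influenza virus in the nucleus and Mx2 against other viruses in the cytoplasm, and many laboratory mouse strains carry inactive forms of them. The annotation lists Mx2 as a polymorphic pseudogene, which is intact in some strains only. Mx1 was at 43.3, 34.5, 14.6 and 23.2 CPM in libraries 86, 88, 89 and 90, and at 0.0367 to 13.9 CPM with a median of 0.813 CPM in the other 91. All 4 lay above every other library, as did 0.41% of kept genes for that run. Mx2 was at 0.0458, 0.181, 0.213 and 0.0444 CPM in the same 4 libraries, from 1 to 6 reads each, and at 1.26 to 13.3 CPM with a median of 3.41 CPM elsewhere. All 4 lay below every other library, as did 0.24% of kept genes. No other member lay wholly apart in any of the 8 sets of runs examined, in which 4 pairs of runs with similar profiles were joined (1 to 8 with 34 to 39, 9 to 16 with 40 to 48, 17 to 24 with 49 to 58, and 25 to 32 with 59 to 65). In that order of sets, followed by 66 to 75, 76 to 85, 86 to 90 and 91 to 100, the share of kept genes wholly below the other libraries was 0.391%, 0.271%, 0.0568%, 0.12%, 1.02%, 0.0821%, 0.24% and 0.234%. The share wholly above them was 0.41%, 0.271%, 0.0316%, 0.101%, 1.38%, 0.145%, 0.41% and 0.12%.

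Mx1 also had a low end. In libraries 9 to 16 and 40 to 48 it was at 0.0367 to 0.341 CPM, from 1 to 10 reads, with a median of 0.153 CPM, against a median of 1.37 CPM in the other 79. Of those 79, 4 lay at or below the highest of the set. Libraries 91 to 100 had a median of 7.48 CPM and libraries 76 to 85 of 2.52 CPM. Mx2 had its highest run median, 6.57 CPM, in libraries 25 to 32 and again in libraries 66 to 75.

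Ifi44 (chromosome 3, 151730922 to 151749960) was low in both runs of another set. It was at 0.0635 to 0.416 CPM in libraries 1 to 8 and at 0.0408 to 0.831 CPM in libraries 34 to 39, where estimated counts were 1 to 14 reads. The median over both was 0.167 CPM, against 0.728 to 9.22 CPM with a median of 2.75 CPM in the other 81. Only 1 of those 81, library 95, lay within the low range. Ddx58, a sensor of viral RNA in the cytosol, was low in the same 14 libraries, at 6.29 to 13.0 CPM with a median of 8.82 CPM, against 12.0 to 71.6 CPM with a median of 18.6 CPM, and 1 of the 81 reached into that range. Ifih1, a sensor of long double-stranded RNA, was also low there, at a median of 3.71 CPM against 11.1 CPM elsewhere, with 23 of the 81 at or below the highest of the set. Oasl2 was at a median of 1.83 CPM in libraries 1 to 8 and 2.52 CPM in libraries 34 to 39, against 19.4 CPM in libraries 91 to 100. Oas1a had run medians of 0.540 and 0.374 CPM in the same runs and 6.32 CPM in libraries 91 to 100.

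Not every type I-like gene was low in those 14 libraries. Usp18 was high there, at 27.2 to 46.7 CPM with a median of 35.8 CPM, against a median of 21.3 CPM in the other 81. It was low in libraries 9 to 16 and 40 to 48, at 10.9 to 17.5 CPM with a median of 13.8 CPM. Libraries 66 to 75, with a median of 35.1 CPM, lay with the high set.

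Rsad2 (chromosome 12, 26442753 to 26456452), which encodes the antiviral enzyme viperin, had a high and a low set. Libraries 17 to 24 and 49 to 58 were at 9.17 to 37.6 CPM with a median of 17.1 CPM. Libraries 9 to 16 and 40 to 48 were at 1.46 to 2.99 CPM with a median of 2.10 CPM. Outside these sets, 13 and 9 libraries reached into their ranges, in that order. Ifih1 shared the high set, with run medians of 14.3 CPM in libraries 17 to 24 and 15.9 CPM in libraries 49 to 58, and stood higher still in libraries 76 to 85 at 18.1 CPM and 86 to 90 at 19.7 CPM. Trim25 had its highest run median, 96.0 CPM, in libraries 17 to 24 and its lowest, 55.5 CPM, in libraries 40 to 48.

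Libraries 66 to 75 combined high and low members. Irgm1 (chromosome 11, 48861968 to 48871683), a GTPase that governs the other members of its family, was at 3.72 to 9.16 CPM there with a median of 5.75 CPM, against a median of 20.2 CPM in the other 86. Of these, 6 lay at or below the highest of the run. Lgals3bp was high in the same run, at 503 to 726 CPM with a median of 594 CPM, against a median of 339 CPM, and 5 of 86 other libraries reached its lowest level. Xaf1, a partner of the apoptosis inhibitor XIAP, was at 6.13 to 17.9 CPM with a median of 8.93 CPM, against a median of 2.49 CPM, with 10 of 86 reaching in. Its next highest run medians were 6.398 CPM in libraries 91 to 100 and 5.87 CPM in libraries 76 to 85. Oas2, Oas3 and Ifit3 had their lowest run medians in libraries 66 to 75, at 0.683, 0.0578 and 0.595 CPM. For Oas3 that was a median of 2 reads, as in libraries 34 to 39, so its lowest run is not certain. Oas1a ran from 0 reads in library 68 to 3.08 CPM in library 74 within that run.

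The guanylate-binding genes differed among themselves. Gbp4 was at 8.40 to 61.0 CPM with a median of 12.7 CPM in libraries 25 to 32 and 59 to 65, against a median of 2.95 CPM in the other 81, of which 15 reached that range. Gbp3 was low in libraries 9 to 16 and 40 to 48, at 0.992 to 2.46 CPM with a median of 1.27 CPM, against 3.80 CPM elsewhere. Gbp2 was not low there, with run medians of 3.54 and 4.04 CPM, and had its lowest run median of 1.48 CPM in libraries 1 to 8. Gbp7 and Gbp9 were also lowest in libraries 1 to 8, at run medians of 3.33 and 3.10 CPM, while Gbp5 was lowest in libraries 76 to 85 at 1.69 CPM. All of them had their highest run median in libraries 91 to 100, from 29.7 CPM for Gbp5 to 86.1 CPM for Gbp2. The GTPases Ifi47 and Igtp were lowest in libraries 76 to 85, at 1.14 and 5.53 CPM, and at 29.3 and 78.6 CPM in libraries 91 to 100.

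Ifi35, Irf9, Parp14, Parp9 and Ifitm3 each had their highest run median in libraries 91 to 100. Ifi35 ran from a run median of 12.0 CPM in libraries 34 to 39 to 28.4 CPM in libraries 91 to 100, and Irf9 from 12.7 CPM in libraries 9 to 16 to 40.7 CPM. Parp14, which attaches ADP-ribose to proteins, ran from 9.43 CPM in libraries 1 to 8 to 42.8 CPM, and Parp9 from 11.1 to 29.4 CPM between the same runs. Ifitm3 ran from 5.85 CPM in libraries 34 to 39 to 33.3 CPM.

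**Figure D4:**
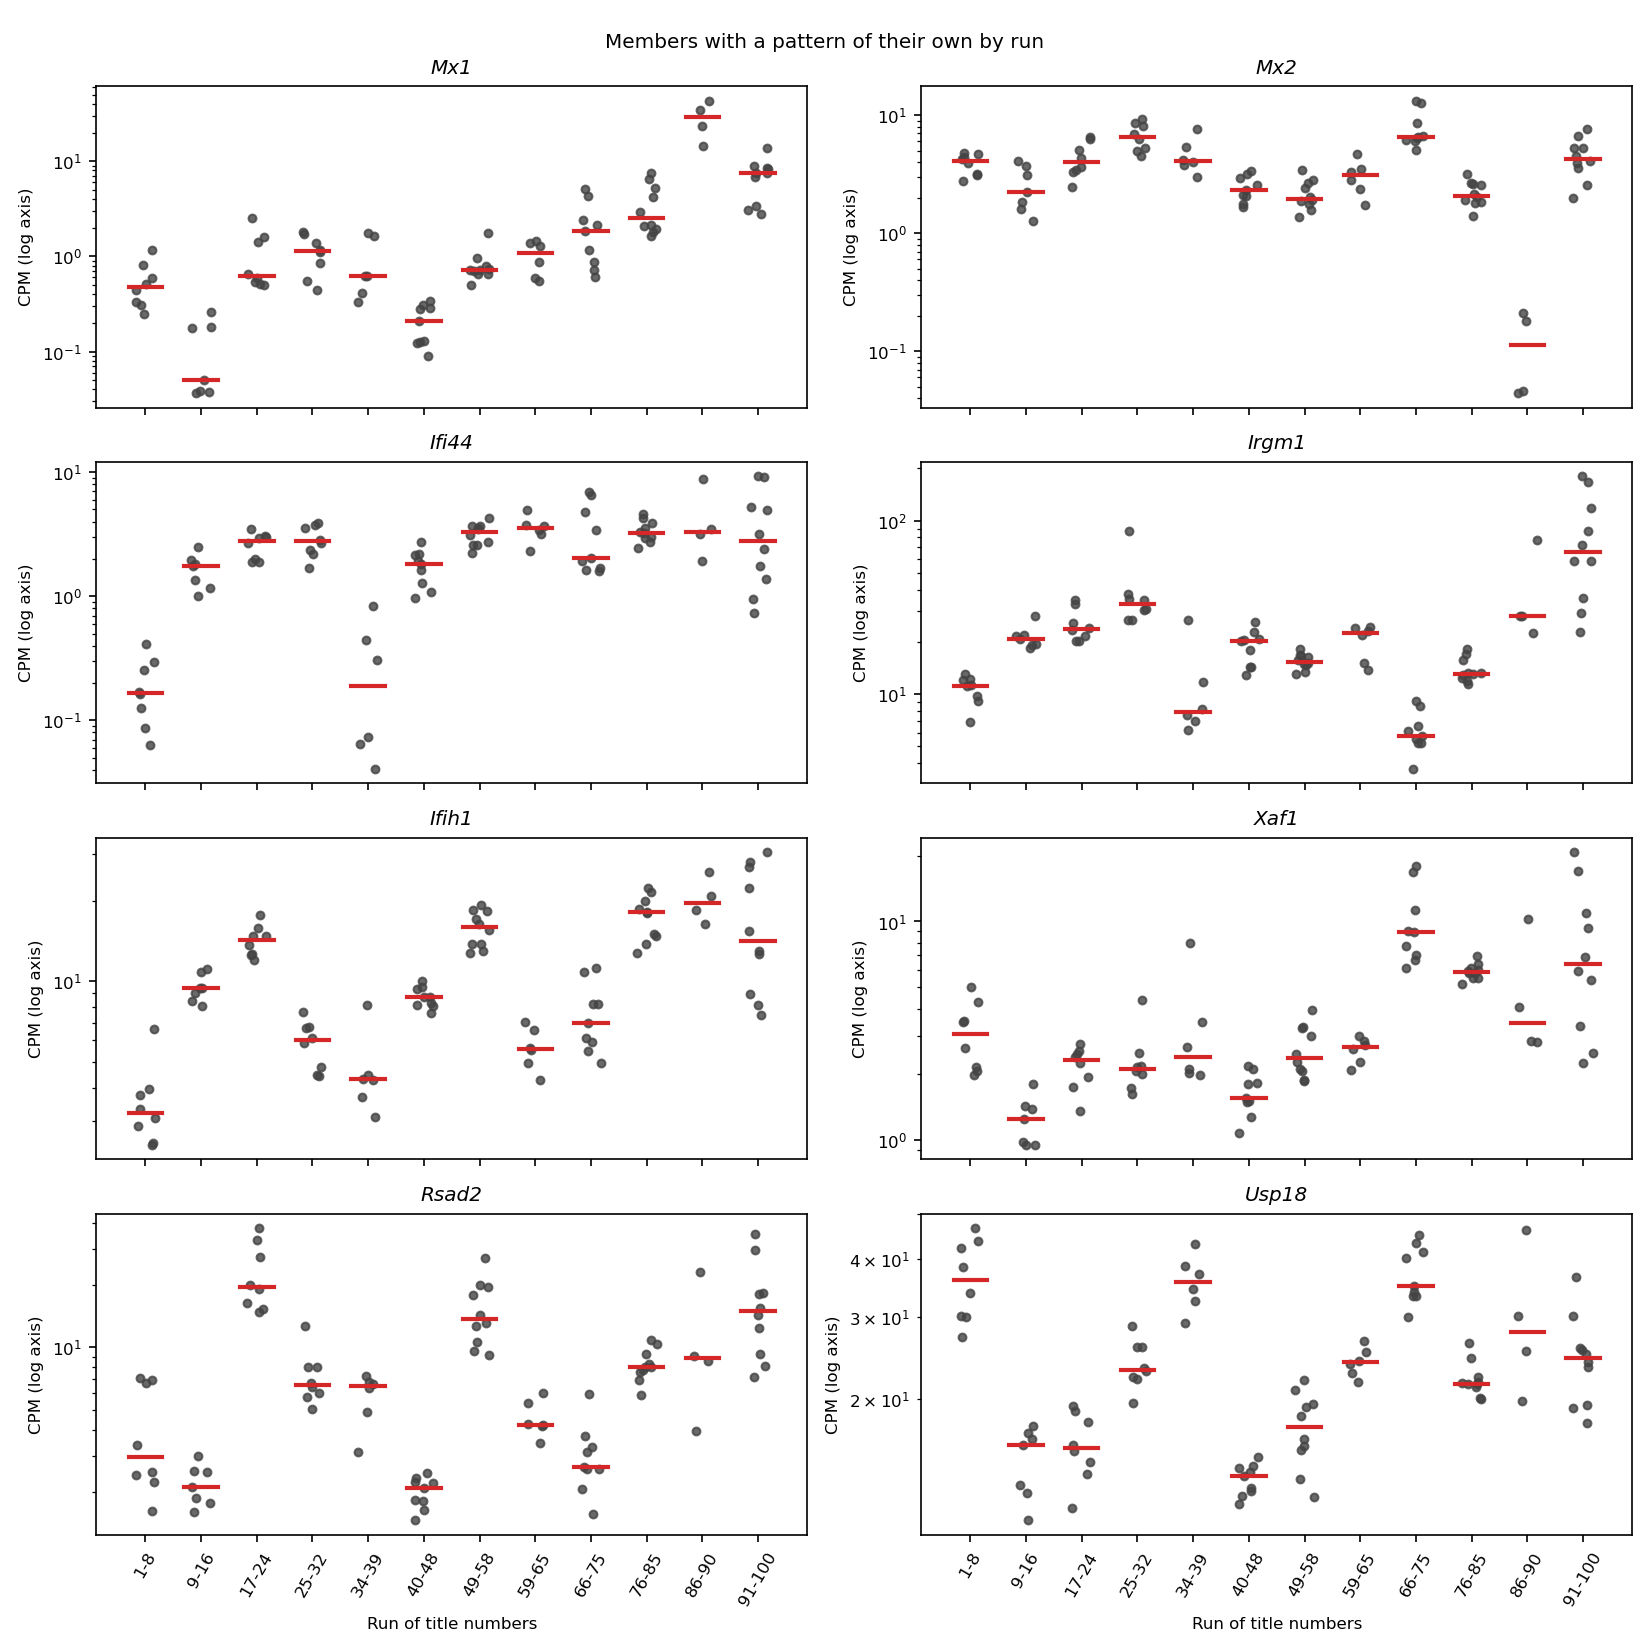
Each panel shows a member; points are libraries placed by run of title numbers on the x axis, the y axis is CPM on a log scale, and bars are run medians. In libraries 86 to 90 Mx1 is at 14.6 to 43.3 CPM and Mx2 below 0.22 CPM, Ifi44 is low in libraries 1 to 8 and 34 to 39, and Irgm1 is low in libraries 66 to 75.

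Irf1 had its lower median in the later run of each joined set, with log2 differences of -1.57 (34 to 39 against 1 to 8), -0.32 (40 to 48 against 9 to 16), -1.93 (49 to 58 against 17 to 24) and -0.71 (59 to 65 against 25 to 32). Irf1 was at 156 to 354 CPM with a median of 207 CPM in libraries 17 to 24. It was at 40.7 to 135 CPM with a median of 54.5 CPM in libraries 49 to 58. Cxcl10 differed by -1.83, 0.25, -2.43 and -1.69 log2 units in the same order of sets. Irf1 was 1 of 6 members with a lower median in the later run of all 4 sets, against 18.7% of kept genes. In the same order, 3, 1, 2 and 3 of the 47 members differed by over 1 log2 unit in either direction, against 2.9%, 1.46%, 4.15% and 3.51% of kept genes. Besides Irf1 and Cxcl10 these were Rsad2, higher by 1.14 in libraries 34 to 39, and Mx1, higher by 1.18 in libraries 40 to 48. Mx1 was at a median of 5 reads there, against 1 in libraries 9 to 16. The others were Mx2 and Ifit3, at -1.08 and -1.23 in libraries 59 to 65. The median difference over the members lay between -0.26 and 0.09 in the 4 sets, and over all kept genes between -0.0035 and 0.0161.

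Irf1 is also an immediate early gene, switched on within minutes by many stimuli, as is Egr1, a transcription factor used here as a marker of such a response. Egr1 had run medians of 2069 CPM in libraries 34 to 39 and 1527 CPM in libraries 49 to 58, against 3086 CPM in libraries 1 to 8 and 2844 CPM in libraries 17 to 24. In the other 2 joined sets Egr1 was higher in the later run while Irf1 was lower, at 3237 CPM in libraries 40 to 48 against 3079 CPM in libraries 9 to 16, and at 3554 CPM in libraries 59 to 65 against 2918 CPM in libraries 25 to 32. Over the 95 libraries Irf1 correlated with Egr1 (Spearman rho 0.585, Pearson r 0.680, adjusted permutation p of 1.71e-05 for rho and 1.33e-05 for r). Leaving out the 2 libraries farthest from the Irf1 median gave an r of 0.646, centring within runs gave a rho of 0.760, and the values were 0.401 in libraries up to 50 and 0.634 above 50. The part of this response in the level of Irf1 was not tested.

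The relation of Irf1 to the type II-like gene Gbp2 was weak and differed among parts of the libraries. Over all libraries the Spearman coefficient was 0.261 and r was 0.291 (adjusted permutation p of 0.0128 and 0.00462), and r was 0.283 without the 2 libraries farthest from the Irf1 median. The Spearman coefficient was 0.132 without libraries 91 to 100 (adjusted permutation p of 0.247), -0.200 after centring within runs (0.0561) and -0.0625 in libraries up to 50 (0.744). In libraries above 50 it was 0.576 (0.000105), and without the 15 acinar-rich libraries 0.221 (0.0602). The relation of Irf1 and Gbp2 therefore did not hold within runs.

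**Figure D5:**
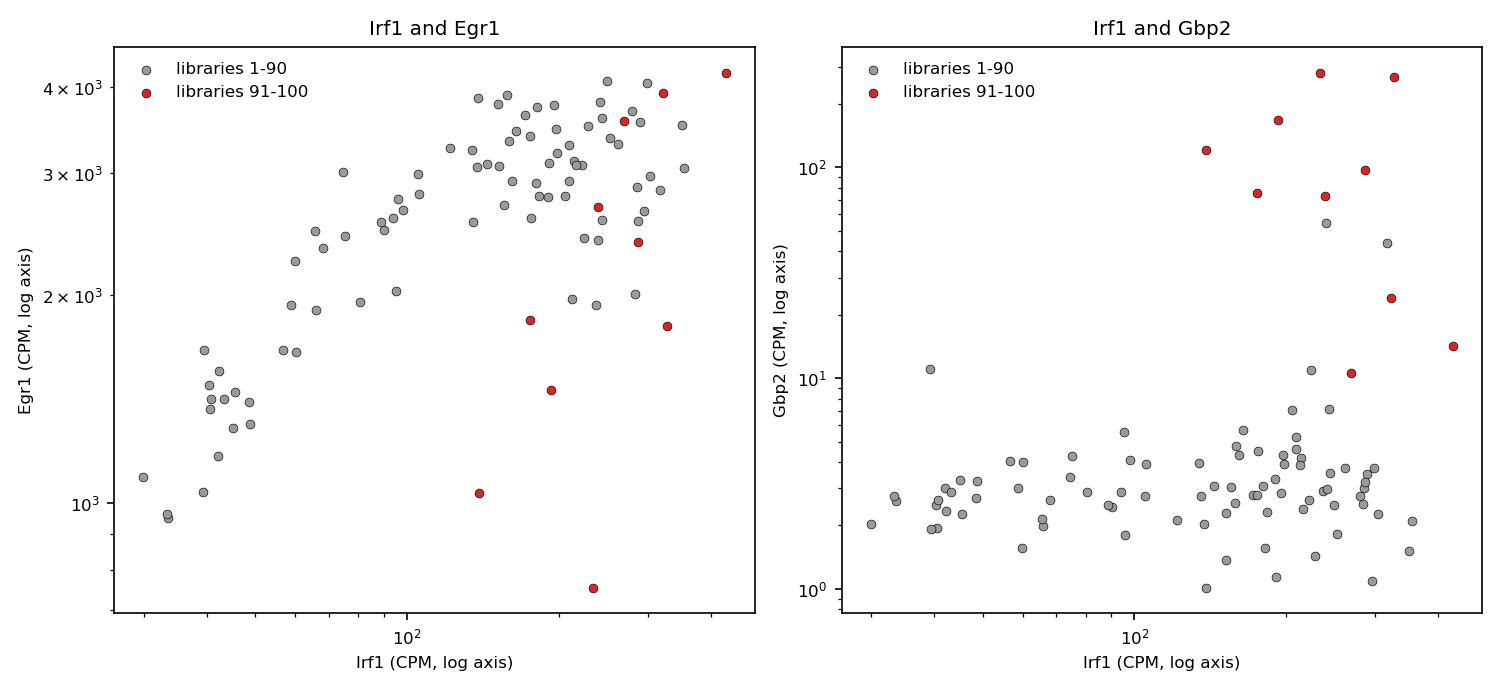
Each point is a library, with Irf1 on the x axis against Egr1 (left) and Gbp2 (right), all in CPM on log scales. Egr1 climbs with Irf1 over most libraries, with libraries 91 to 100 spread around the others, while Gbp2 is near 3 CPM at every Irf1 level outside libraries 91 to 100 apart from a few libraries.

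The remaining relations between single genes, of 12 fixed for testing in all, were adjusted together by the Benjamini-Hochberg method. The smallest raw p that 100000 permutations can give is 1e-05, and libraries of neighbouring numbers are alike, so these p-values are too small. Irf7 and Isg15, a ubiquitin-like protein attached to others in the type I response, had a rho of 0.792 and an r of 0.846, with 0.627 centred within runs and 0.724 without libraries 91 to 100. Irf7 and Gbp2 had 0.573 and 0.773, with 0.489 centred and 0.447 without those libraries. Cxcl9 and Cxcl10 had 0.505 and 0.742, with 0.402 and 0.308. Gbp2 and Igtp had 0.558 and 0.932, with 0.568 and 0.383, and in libraries up to 50 their rho was 0.0484 (adjusted permutation p of 0.745). For these 4 pairs the adjusted permutation p of rho over all libraries was 1.71e-05, and r without the 2 farthest libraries was 0.8004, 0.689, 0.691 and 0.905.

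Relations with markers of immune cells rested in part on libraries 91 to 100. Cxcl9 and Cd3e, a chain of the T cell receptor complex, had a rho of 0.499 and an r of 0.841 (adjusted permutation p of 1.71e-05 for rho), with 0.598 centred within runs and 0.303 without libraries 91 to 100. Gbp2 and Cd3e had 0.394 and 0.786 (0.000135), with 0.347 centred and 0.163 without those libraries (0.180). Isg15 and Cd3e had 0.303 and 0.580 (0.00419), with 0.277 centred and 0.0635 without them (0.564). Without the 2 farthest libraries, r of these pairs was 0.794, 0.717 and 0.461. In libraries up to 50 their rho was 0.331, 0.168 and -0.0606, and above 50 it was 0.667, 0.604 and 0.561. Cd3e had run medians of 0.0159 to 0.303 CPM outside libraries 91 to 100, against 17.0 CPM within them. Levels so low rest on few reads, so the coefficients without those libraries carry large counting error.

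Irf7 and Adgre1, a macrophage surface receptor, had a rho of 0.681 and an r of 0.753 (adjusted permutation p of 1.71e-05 for rho), with 0.327 centred and 0.607 without libraries 91 to 100, and r was 0.716 without the 2 farthest. Adgre1 had its highest run medians in libraries 91 to 100 at 12.2 CPM and in libraries 66 to 75 at 10.7 CPM, against 1.37 CPM in libraries 1 to 8. Exocrine RNA was measured by Cpa1, a digestive enzyme of acinar cells. Irf7 and Cpa1 had a rho of -0.223 (0.0330) and an r of -0.144 (0.180), and Gbp2 and Cpa1 a rho of -0.0288 (0.782) and an r of 0.0442 (0.674). Both values of rho were positive in libraries above 50, at 0.104 (0.486) and 0.164 (0.295). Within libraries 91 to 100 alone, a set chosen after seeing the data, they were -0.709 (0.0327) and -0.758 (0.0202), and without those libraries -0.324 (0.00540) and -0.141 (0.236). Without the 15 acinar-rich libraries Irf7 and Cpa1 had a rho of -0.174 (0.134).

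Receptor chains and kinases lie upstream of the members. The spread between the 10th and 90th percentiles was 0.53 to 1.63 log2 units for 6 receptor chains and 0.39 to 0.81 for 3 kinases, against a median of 2.29 over the members, whose narrowest was 0.68, and of 0.92 over all kept genes. The spread was 0.75 to 2.40 for 3 brakes on the signal and 0.68 to 3.01 for 8 sensors and adaptors that passed the low-count filter. Of 12 interferon genes listed, only Ifnb1 was found by symbol among the counted genes. The other 11, with the type II interferon gene Ifng among them, could not be measured here. Ifnb1 was at a median of 0.101 CPM and at most at 4.70 CPM, in library 30, and its rho with the mean of the members was 0.201. Ifnar1, part of the type I receptor, had a median of 28.3 CPM and a rho of 0.438. Its partner Ifnar2 had the highest rho of the 6 chains, 0.776, while Ifngr1 and Ifngr2 of the type II receptor had 0.050 and 0.314. The kinase Jak1 stood at 166 CPM and Socs3, a brake on cytokine signals, at 442 CPM, with rho of 0.212 and 0.051. Socs1, the brake on interferon receptors, was at 2.38 CPM with 0.480. Of 9 sensors and adaptors, 5 had a rho above 0.5, against 3.42% of kept genes, with the highest for Tlr3, an endosomal sensor of double-stranded RNA, at 0.652. Irf3, the factor that starts interferon genes, was at a median of 25.9 CPM with a rho of 0.228. Of the immune marker lists, a rho above 0.5 was found for 2 of 7 T cell, 2 of 2 natural killer cell, 4 of 6 macrophage, 3 of 4 conventional dendritic cell, 0 of 4 plasmacytoid dendritic cell and 0 of 4 B cell markers. It was found for 0 of 6 acinar, 0 of 6 beta cell, 0 of 3 alpha cell, 0 of 2 delta cell, 0 of 5 duct cell, 0 of 4 endothelial and 0 of 5 stellate cell and fibroblast markers.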

How the data were processed

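Poly(A) RNA of islets was sequenced in 95 libraries, per the labels. The deposited count table holds estimated counts per gene made by the authors, 67.7% of them whole numbers, and another table the authors deposited gives variance-stabilised values near a log2 scale. Gene positions were used as the authors' table gives them. The submitters' processing notes name DESeq2 and GRCm38 without roles. Not given in the sources used here were the aligner, the counting tool and its use of strand. The effect of strain sequence on counts was not tested.

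Counts were scaled to CPM with TMM factors from edgeR 4.0.16 (0.459 to 1.29), with a prior count of 2 on the log2 scale. A gene was kept where 10 or more libraries had a CPM of at least 1. Counts were rounded for dispersions, whose square root is the coefficient of variation. Total counts limit precision, and levels of a few reads carry large counting error. No count of members was tested. Relations between single genes used two-sided permutation tests of 100000 resamples, adjusted over 12 pairs. Libraries are not known to be separate animals, and p-values measure only the spread among the libraries, which may be technical. The steps were tested on simulated data. Sequence shared between genes used 31-base words of GENCODE M21 transcripts.

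The members, lists, runs and pairs were chosen with earlier results of these data known. Values are given for all members that the runs mark with over 50% of their own variance, for the members of each class with the highest medians and the widest and narrowest ranges, for members apart in a set of runs, for tested pairs and for the leading pathway genes. Alternatives were DESeq2 1.42.0 size factors and dispersions, no filter (which changes the coefficients of variation only), a prior count of 0.5, the variance-stabilised values, other thresholds, blocks of 10 numbers, parts of the libraries and other class splits.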

Additional observations from a re-analysis of the deposited data

How the results depend on the processing

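Alternatives chosen after seeing the data were a threshold of 70% for the share between runs and libraries above 90 taken alone. Of the 47 members, 45 had over 50% of variance between runs and 21 had over 70%. With blocks of 10 numbers in place of runs, members whose own share exceeded 50% fell from 30 to 6, where 3.79% of kept genes passed. Members apart in a set of runs numbered 2, 4 without the 15 acinar-rich libraries (adding Ifi44 and Ddx58), and 1 when a gap of 1 log2 unit was required (Mx2). In libraries above 90 alone, mean pairwise rho was 0.808 within type I-like, 0.799 within type II-like and 0.808 between the classes. Of 12 relations, 11 passed over all libraries and 6 in libraries up to 50. Without the low-count filter only the coefficients of variation were computed anew. Every other value without it repeats the main one by construction, so the values of the 12 pairs without it could not differ. Of 120 values of a pair under an alternative, 105 kept direction and side of the threshold, with those unfiltered values among them, 8 lost the call, 1 gained it (Gbp2 with Cpa1, -0.758 above 90) and 6 changed sign. The 6 were Irf1 with Gbp2 at -0.200 (centred within runs), -0.0625 (libraries up to 50) and -0.345 (above 90), Gbp2 with Cpa1 at 0.164 and Irf7 with Cpa1 at 0.104 (both above 50), and Isg15 with Cd3e at -0.0606 (up to 50). The cause was not tested. Levels of 1 to 14 reads, as for Mx2 and Ifi44 in their low runs, limit how finely those libraries can be ordered.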

Other observations

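Some single libraries outside numbers 91 to 100 had high members, and they were chosen after their values were seen. Library 29 had a shift of 2.78 log2 units in type II-like and 0.78 in type I-like genes, with Gbp2 at 43.7 CPM, Cxcl10 at 43.9 CPM and Iigp1 at 65.0 CPM. Its T cell marker sum was 1.95 CPM, near the median of 1.59 CPM over all libraries, and its macrophage marker sum was 99.0 CPM. Its natural killer cell marker sum was 0.580 CPM, against a median of 0.132 CPM over all libraries. Library 90 had shifts of 3.18 and 1.51, with Gbp2 at 54.5 CPM, Cxcl9 at 19.9 CPM and Iigp1 at 126 CPM. Its T cell marker sum was 9.15 CPM and its macrophage marker sum 201 CPM. Natural killer and conventional dendritic cell markers summed to 3.64 and 23.2 CPM there, against medians of 0.132 and 5.56 CPM over all libraries. B cell markers were lower, at 3.51 against 9.83 CPM. Library 94, one of libraries 91 to 100, had a type II-like shift of 1.14, lower than in library 29 or 90. Its T cell marker sum of 7.06 CPM lay above that of library 29 and below that of library 90.

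Libraries 72 and 74 had type I-like shifts above their type II-like shifts. The type I-like shifts were 0.99 and 0.90, and the type II-like shifts 0.38 and 0.51. Irf7 was at 14.5 and 12.2 CPM and Isg15 at 4.48 and 2.67 CPM, while Gbp2 was at 3.40 and 3.01 CPM and Cxcl9 at 0.333 and 0.497 CPM. Their T cell marker sums were 3.74 and 12.9 CPM. B cell markers summed to 25.4 and 72.5 CPM and macrophage markers to 80.0 and 121 CPM, against medians of 9.83 and 61.4 CPM over all libraries. Natural killer cell markers summed to 0.0370 and 0.279 CPM, against 0.132 CPM over all libraries. Conventional dendritic cell markers summed to 4.76 and 9.12 CPM, against 5.56 CPM. These 4 libraries have no replicate that the labels name, and the differences were not tested.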
